A study of Mus musculus with 2 samples.

Results

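The calcium pumps and sodium-calcium exchangers are among the proteins that carry calcium out of the cytosol. For this description 10 genes were taken: every row of both deposited gene tables whose identifier maps to Atp2a1, Atp2a2 or Atp2a3 (SERCA pumps), Atp2b1, Atp2b2, Atp2b3 or Atp2b4 (PMCA pumps), or Slc8a1, Slc8a2 or Slc8a3 (sodium-calcium exchangers) in mouse GENCODE. All 10 were found, among 43346 mouse genes. The genes were chosen by name and not by their values. The study profiled Purkinje cells, the large inhibitory output neurons of the cerebellar cortex, by RNA-seq of 2 laser-captured pools of 50 cells each. Both pools came from male wild-type C57Bl6 mice (B6NCrl in the source label) aged 8 months, with no treatment or altered allele named, and RNA over 200 nt was sequenced. There was 1 group and no control, and both pools carry 1 donor identifier, so separate animals are not established and the spread between pools may be technical.

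SERCA pumps sit in the membrane of the endoplasmic reticulum and refill it with calcium at the cost of ATP. PMCA pumps sit in the plasma membrane, bind calcium with high affinity and are switched on by calmodulin. Sodium-calcium exchangers, also in the plasma membrane, use the sodium gradient kept up by the sodium-potassium ATPase and move more calcium per second with lower affinity. Purkinje cells hold very large calcium signals, from voltage-gated channels and from IP3 receptors on the reticulum, and mice without working PMCA2, the product of Atp2b2, are ataxic and deaf.

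The libraries held 23830685 expected counts (estimated reads per gene) in pool 1 and 27907662 in pool 2. Marker genes matched the label: 6 of 6 Purkinje cell markers were detected, with a summed level of 20145 TPM in pool 1 and 19831 TPM in pool 2 (TPM is the share of a gene among all transcripts, corrected for transcript length). Bergmann glia and astrocyte markers were also present, 7 of 7, at a summed 3915 and 4288 TPM. Granule cell markers, 5 of 5 detected, summed to 105 and 135 TPM, and oligodendrocyte markers, 6 of 6, to 218 and 213 TPM. Endothelial and pericyte markers, 6 of 6, summed to 108 and 136 TPM, interneuron markers, 4 of 4, to 37.7 and 27.6 TPM, and microglial markers, 2 of 4, to 13.0 and 17.4 TPM. Blood markers, 5 of 5, stood at 651 TPM in pool 1 and 2274 TPM in pool 2. In such pools, fewer cells of a type and less RNA per cell cannot be told apart, and the part of other cell types in the levels below was not tested.

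The level of the 10 genes was concentrated in 1 SERCA pump and 1 PMCA pump. Atp2a2 was highest at 429 ± 99.4 TPM (mean ± SD, n = 2 pools, as throughout), and Atp2b2 followed at 220 ± 73.9 TPM. Atp2a3 and Atp2b1 lay near 27 TPM, and the 3 exchangers together reached 4.36 ± 0.884 TPM. A gene was taken as detected when each pool held it at 1 TPM or more, and 6 of the 10 genes were, against 28.8% of all mouse genes. The 6 were Atp2a2, Atp2b2, Atp2a3, Atp2b1, Slc8a1 and Atp2b3.

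**Figure D1:**
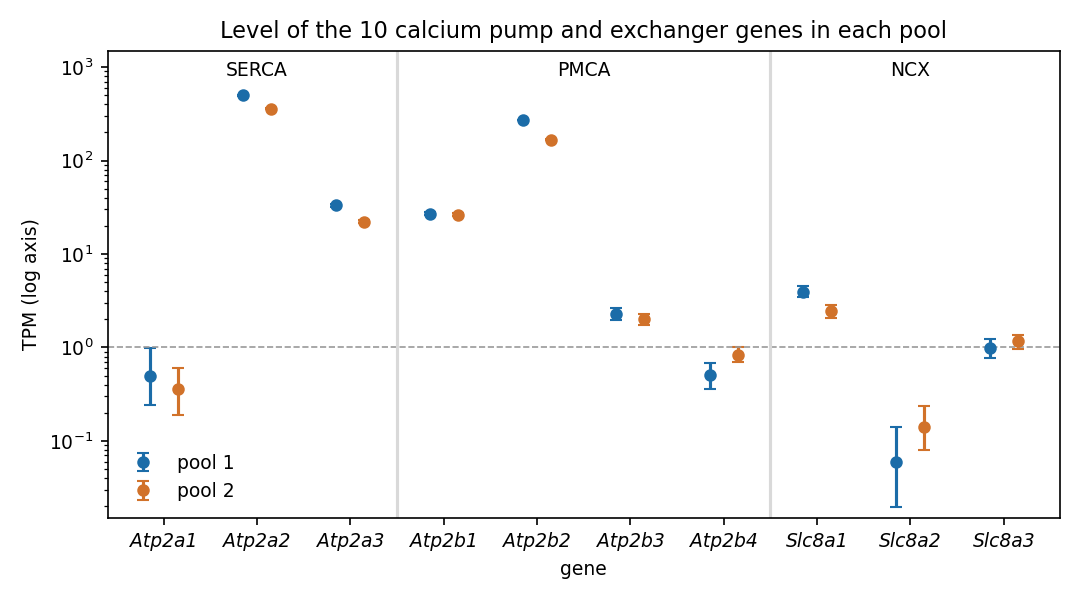
TPM of the 10 genes (log axis) in pool 1 and pool 2, with exact 95% Poisson intervals that cover counting error only; the dashed line marks a TPM of 1. Atp2a2 and Atp2b2 stood above 150 TPM in both pools, while Slc8a2 lay at 0.06 and 0.14 TPM.

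Of the SERCA pumps, Atp2a2, which encodes the housekeeping and cardiac pump SERCA2, was read from 42241 expected counts in pool 1 and 38475 in pool 2. These gave levels of 499.8 and 359 TPM, and its mean ranked 282 among all mouse genes. The gene lies on the minus strand of chromosome 5, 122453513 to 122502225 (mm10, GENCODE M21, as for all gene coordinates here). As deposited, pool 1 was the higher of the pools, and even the lower value exceeded every other pump or exchanger in either pool.

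Atp2a3, which encodes SERCA3, a pump with lower calcium affinity known from platelets, lymphoid cells and Purkinje cells, stood at 33.1 TPM in pool 1 and 22.1 TPM in pool 2. It lies on the plus strand of chromosome 11, 72961169 to 72993044. Of the platelet markers, Pf4 had 3.21 TPM in pool 1 and 0.65 TPM in pool 2, Itga2b 0.59 and 0.90 TPM, and Ppbp no count. The 3 markers, none of them detected in both pools, summed to 3.80 and 1.55 TPM. Lymphoid markers were not read, and the cell source of the Atp2a3 reads was not tested. Atp2a1, the fast skeletal muscle pump SERCA1, had 8.66 and 13.2 expected counts and levels of 0.50 and 0.36 TPM. The muscle creatine kinase gene Ckm had no count, but 3 of 7 muscle markers were detected. Of these, Myl2 stood at 7.2 TPM in pool 1 and 4.58 TPM in pool 2. Mylpf stood at 3.52 and 3.12 TPM, and Acta1 at 1.25 and 1.16 TPM. The 7 muscle markers summed to 13.25 TPM in pool 1 and 13.86 TPM in pool 2. The part of muscle in the Atp2a1 level was not tested. Atp2a1 shares 763 exonic bases with Rabep2 on the opposite strand, which had levels of 4.80 and 4.08 TPM. It was also the only member with fractional gene counts, so its reads cannot be told apart from those of its neighbour. Atp2a2 made up 93.7% of the summed SERCA level in pool 1 and 94.1% in pool 2.

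Among the PMCA pumps, Atp2b2, which encodes the fast neuronal pump PMCA2, had 37428 and 29098 expected counts and levels of 272 and 168 TPM. Its mean ranked 627 among all mouse genes. It lies on the minus strand of chromosome 6, 113743831 to 114042613. Atp2b1, which encodes the widely expressed PMCA1, had 3765 and 4686 counts and levels of 27.0 and 26.5 TPM. It lies on the plus strand of chromosome 10, 98914406 to 99026143. Atp2b3, on the X chromosome, encodes PMCA3, a brain pump mutated in a human cerebellar ataxia. It stood at 2.30 and 2.00 TPM. Atp2b4, which encodes PMCA4, the pump of red cells and sperm, stood at 0.51 and 0.84 TPM, below the detection threshold in both pools. Its deposited posterior mean TPM, an average over the ways its reads can be assigned, was 1.12 and 1.31. That measure also gives a level to transcripts with no reads: Atp2b4-208 had 0 counts in both pools, yet 0.34 and 0.27 TPM. The posterior mean is therefore no evidence that Atp2b4 passed the threshold. The hemoglobin gene Hba-a2 had 285 TPM in pool 1 and 991 TPM in pool 2. Of the 5 blood markers, 1 was lower in pool 2, Alas2 at 2.22 and 1.43 TPM. The part of blood in the Atp2b4 level was not tested. Within the family, Atp2b2 took 90.1% of the summed level in pool 1 and 85.1% in pool 2, and Atp2b1 took 8.94% and 13.4%.

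The exchangers were low in both pools. Slc8a1, which encodes the cardiac and widely expressed NCX1, had 217 and 170 counts and levels of 3.94 and 2.43 TPM. Slc8a3, the brain and skeletal muscle exchanger NCX3, stood at 0.98 and 1.16 TPM, on either side of the threshold, with a posterior mean of 1.13 and 1.26. Slc8a2, the brain exchanger NCX2, had 5 and 15 counts, and its levels of 0.06 and 0.14 TPM had exact Poisson intervals of 0.0198 to 0.142 and 0.0807 to 0.238 TPM. Both intervals stayed below 1 TPM. The value of Slc8a1 depends on the transcript model: its longest transcript in the deposited tables was 2913 nt, and in GENCODE M21 it is 18464 nt. Reads that fell in the stretch outside the deposited model could not be counted for the gene, and their number is not known here.

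Summed by family, the SERCA pumps had levels of 533 TPM in pool 1 and 382 TPM in pool 2. The PMCA pumps had 302 and 197 TPM, and the exchangers 4.98 and 3.73 TPM. The SERCA sum was thus 1.77-fold and 1.94-fold the PMCA sum, and the PMCA sum was 60.6-fold and 52.8-fold that of the exchangers. In share of the summed TPM of the 10 genes, SERCA pumps made up 64.5 ± 1.46%, PMCA pumps 34.9 ± 1.5% and exchangers 0.617 ± 0.0338%. The order of the families was the same in both pools. By expected counts, which are not corrected for length, the shares were 53.1%, 46.5% and 0.378%.

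**Figure D2:**
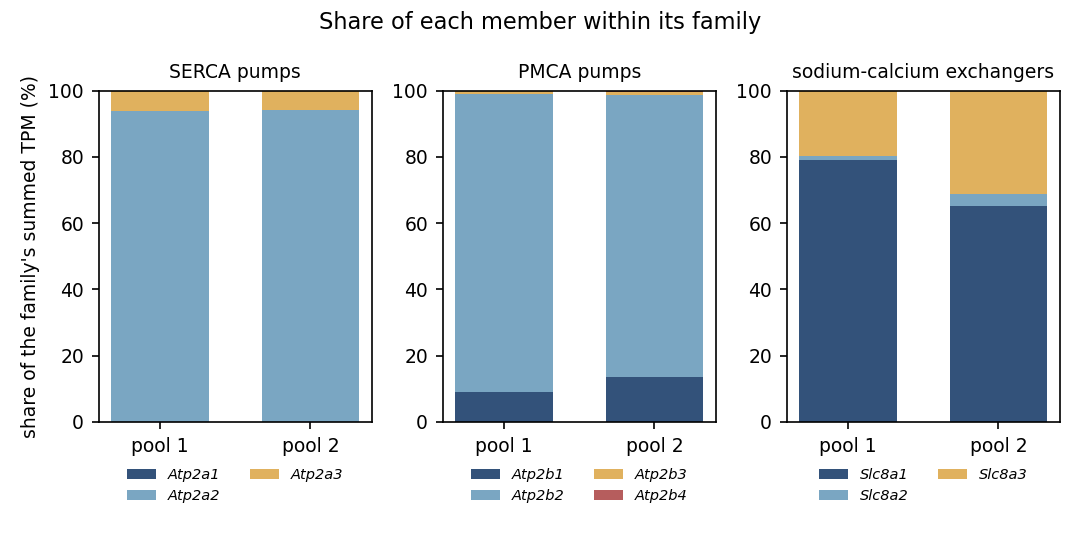
Share of each gene in the summed TPM of its family (%), one stacked bar per pool. Atp2a2 filled 93.7% and 94.1% of the SERCA bars and Atp2b2 90.1% and 85.1% of the PMCA bars, while Slc8a1 fell between 65.1% and 79.1% of the exchanger bars.

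In the order of mean TPM, the genes ran Atp2a2, Atp2b2, Atp2a3, Atp2b1, Slc8a1, Atp2b3, Slc8a3, Atp2b4, Atp2a1 and Slc8a2. Neighbours were compared by their difference in log2(TPM + 1) within each pool, set against the SD of that difference over the pools. The steps between Atp2a3 and Atp2b1 (0.02 ± 0.38) and between Atp2b4 and Atp2a1 (0.22 ± 0.30) did not exceed their spread. Atp2a3 was the higher of its pair in pool 1 and the lower in pool 2. The other 7 steps exceeded their spread, the first of them, Atp2a2 over Atp2b2, at 1.84-fold and 2.14-fold. Among the low genes the order is less sure. By mean posterior mean TPM, Slc8a3 (1.195) fell below Atp2b4 (1.215), though that measure also gives a level to transcripts with no reads. The reads of Atp2a1 may be those of Rabep2. With 2 pools this is a description and no test.

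Atp2b2 was read from several annotated transcripts, which differ at the first exons, at a splice site inside the coding region known as site A, and at the C-terminus. Atp2b2-201 starts at position 113891539 of chromosome 6, and Atp2b2-203 starts 150487 nt upstream of it. Both carry the same coding exons, 1198 codons long. They differ in their own leader exons, 287 nt in Atp2b2-201 and 259 nt in Atp2b2-203. The 250 bases before the RefSeq start site nearest to each (RefSeq, GRCm38.p6, minus strand) are shown because the transcripts are told apart by where they begin. Capitals mark CpG dinucleotides, of which the upstream stretch (chr6:114042081-114042330) holds 16 and the downstream stretch (chr6:113891540-113891789) 6.
upstream start: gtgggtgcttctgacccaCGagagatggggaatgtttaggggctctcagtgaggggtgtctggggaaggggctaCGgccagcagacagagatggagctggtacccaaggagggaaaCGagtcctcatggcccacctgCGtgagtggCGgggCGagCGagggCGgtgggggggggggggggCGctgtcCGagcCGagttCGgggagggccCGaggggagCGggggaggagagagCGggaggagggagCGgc
downstream start: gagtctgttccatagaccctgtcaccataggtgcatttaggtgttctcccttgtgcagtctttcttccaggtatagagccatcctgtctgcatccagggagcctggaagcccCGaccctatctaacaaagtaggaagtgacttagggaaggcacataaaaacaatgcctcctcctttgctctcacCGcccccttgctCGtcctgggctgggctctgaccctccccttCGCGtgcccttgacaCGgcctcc
The downstream RefSeq site is the first base of Atp2b2-201, and the upstream site lies 54 nt from the start of Atp2b2-203. The median over 32851 RefSeq promoters was 6 CpG in the same window, and over the 11 promoters found for 8 of the 10 genes it was 9. Atp2a2 and Atp2b3 had no entry.

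A set of 3 motifs were searched on both strands of these windows, any overlap allowed. TATAAA was in 0 of the 11 promoters and in 12.4% of all promoters. AGGTCA was in 1, that of Atp2a1, and in 14.0% of all, and CACGTG was in 0 and in 6.02%. A match of letters is a description and not a site of binding.

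By the deposited percentages, Atp2b2-201 gave 60.2% of the gene's TPM in pool 1 and 48.6% in pool 2. Atp2b2-203 gave 28.2% and 38.9%, and Atp2b2-206 gave 10.3% and 10.8%. Atp2b2-201 led in both pools, by a margin that was smaller in pool 2. Grouped by start, transcripts of the downstream start summed to 166 TPM in pool 1 and 83.0 TPM in pool 2, and those of the upstream start to 105 and 83.3 TPM. The downstream level in pool 1 was thus 2.00-fold that in pool 2, and the upstream level 1.26-fold. With spike-in scaling these were 1.24-fold and 0.783-fold, so that the direction of the upstream start turned. In share, the upstream start took 38.6% and 49.7%, so that the starts were about even in pool 2. The models of Atp2b2-201 and Atp2b2-203 in the tables are 7067 and 7033 nt long, so leader exons, which are a small part of each, bear on these shares. In GENCODE M21 Atp2b2-203 is 8877 nt long and also reaches further at the 3′ end.

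At site A, the w form of PMCA2 keeps 3 extra coding exons and the z form skips them. The w insert is the form known from hair cell bundles. The exons, numbers 8 to 10 of the 24 in Atp2b2-202, are 33, 60 and 42 nt long, 135 nt or 45 codons in all, and each is a multiple of 3. They are shown because almost no reads were assigned to the transcript that holds them (GENCODE M21, minus strand, chr6:113803747-113803779, chr6:113802486-113802545 and chr6:113797110-113797151), with no part marked.
w exon 1: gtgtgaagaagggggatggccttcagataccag
w exon 2: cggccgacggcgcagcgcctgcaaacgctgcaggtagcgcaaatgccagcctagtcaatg
w exon 3: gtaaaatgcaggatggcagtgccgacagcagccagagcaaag
Atp2b2-202, the only transcript in the deposited tables with these exons, had 14.4 and 2.11 expected counts, or 0.06% and 0.01% of the gene. The coding transcripts without them summed to 98.8% and 98.3%. No transcript of the tables held some of the 3 exons and not the others, so forms of that kind could not be read here.

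At the C-terminus, the b form ends in a 309-nt coding stretch of the last exon, and the a form gains an exon that shifts the frame and ends the protein sooner, which alters the calmodulin-binding region. That exon, number 22 of 24 in Atp2b2-206, is 172 nt long (chr6:113755217-113755388, minus strand, GENCODE M21) and is shown because it carries most of the coding bases that set the a form apart, with no part marked.
a exon: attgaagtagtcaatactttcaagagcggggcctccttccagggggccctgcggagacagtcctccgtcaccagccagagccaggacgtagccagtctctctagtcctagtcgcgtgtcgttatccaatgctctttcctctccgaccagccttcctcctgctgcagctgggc
Transcripts of the b type made up 88.5% of Atp2b2 in pool 1 and 87.5% in pool 2, and Atp2b2-206, with the a exon, 10.3% and 10.8%. These shares differed by about 1 percentage point or less between the pools, where the shares by start differed by over 11. Atp2b2-206 is annotated as subject to nonsense-mediated decay, so its share is that of a transcript and not of a protein form.

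**Figure D3:**
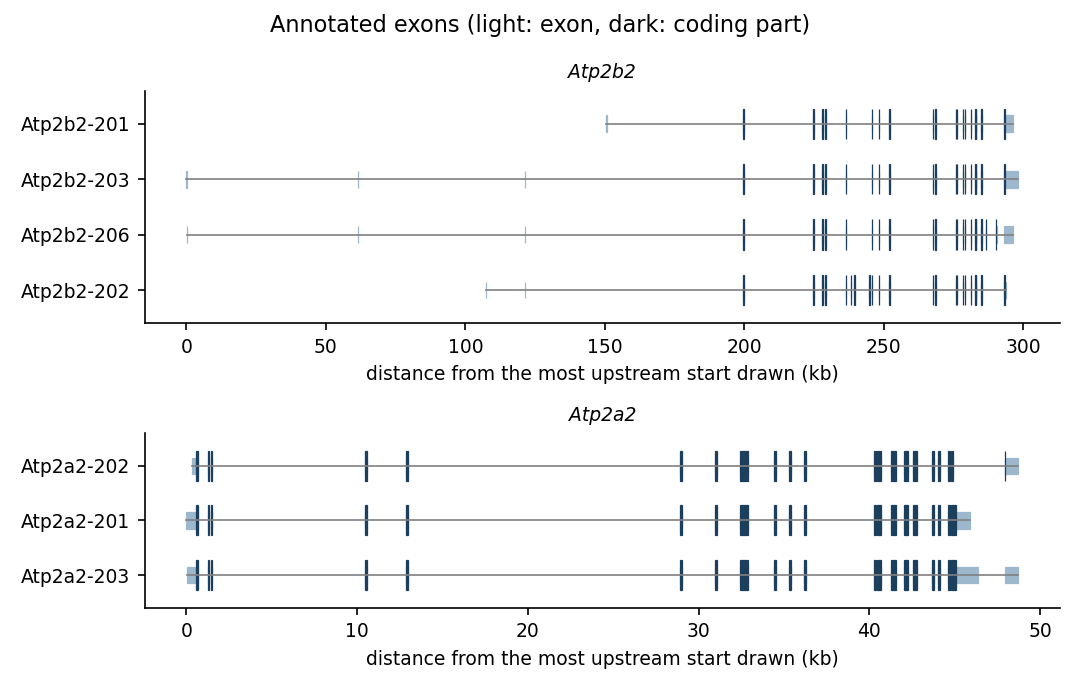
Annotated exons of 4 Atp2b2 and 3 Atp2a2 transcripts (GENCODE M21) against the distance in kb from the most upstream start drawn, read from left to right in the direction of transcription; light boxes are exons and dark boxes their coding parts. Atp2b2-201 begins about 150 kb downstream of Atp2b2-203, and Atp2b2-202 has 3 coding exons that the others lack.

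Atp2a2 was assigned to 2 transcripts. Atp2a2-202, whose coding region ends as SERCA2a does, the form of heart and slow muscle, took 74.8% in pool 1 and 76.8% in pool 2. Atp2a2-201, whose coding region ends as SERCA2b does, the form of most cells, took 25.2% and 23.2%. In TPM these were 374 and 276 for Atp2a2-202 and 126 and 83.2 for Atp2a2-201. The coding regions are 998 and 1044 codons long and part at a splice donor, which is shown with the coding bases that follow in each (GENCODE M21, minus strand, chr5:122454294-122454304 for 2a and chr5:122457154-122457302 for 2b). Capitals mark the GT of the donor that 2a uses and 2b reads through.
2a tail: caatactggag
2b tail: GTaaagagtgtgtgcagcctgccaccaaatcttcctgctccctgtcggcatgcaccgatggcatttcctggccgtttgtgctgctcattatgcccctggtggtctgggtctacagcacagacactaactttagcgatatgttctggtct
These shares cannot be read as shares of the protein forms. None of the 3 Atp2a2 transcripts has the same length in the deposited tables as in GENCODE M21, 4314 against 3984 nt for Atp2a2-202. In M21 a further transcript, Atp2a2-203, annotated as subject to nonsense-mediated decay, has the 2b coding region and also holds the 791-nt last exon of Atp2a2-202. Reads in that exon therefore need not come from the 2a form, and no counts were assigned to Atp2a2-203, listed at 3534 nt in the tables against 5674 nt in M21. Which form such reads came from cannot be told apart.

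**Figure D4:**
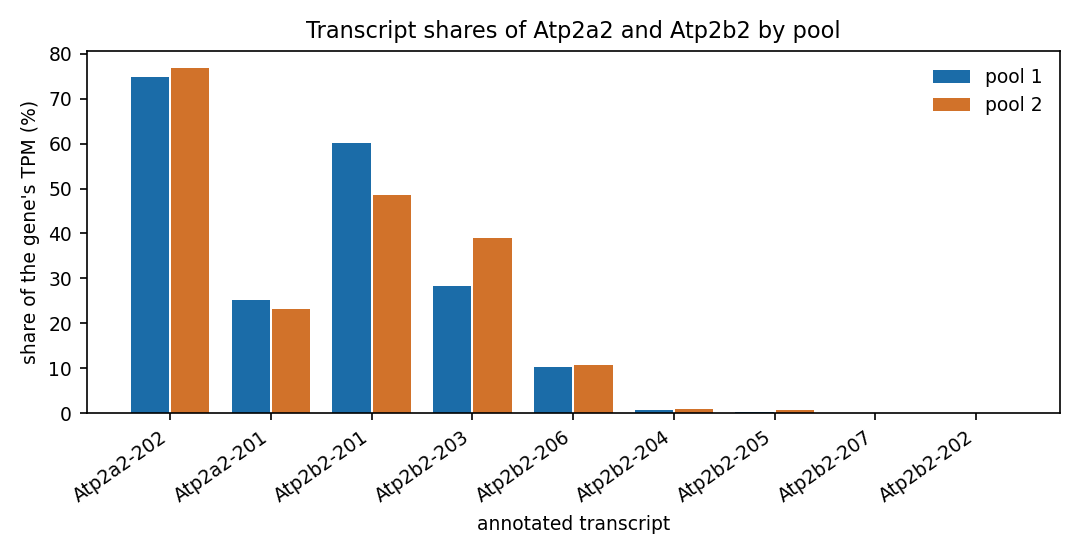
Deposited share (%) of each Atp2a2 and Atp2b2 transcript with reads in the TPM of its gene, by pool. The Atp2a2 shares differ by about 2 percentage points between the pools, and the leading Atp2b2 transcripts by over 10 in opposite directions.

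The other members had less to divide. For Atp2a3, Atp2a3-203 led with 84.4% and 69.9%. Atp2a3-202, which starts 1 coding exon 54 nt later (282 in place of 336 nt), took 5.45% and 21.1%. Its deposited intervals, 3.1e-05 to 6.14 TPM in pool 1 and 0.13 to 8.32 TPM in pool 2, overlap, so the difference in its share is uncertain. The C-terminal form without the 73-nt exon near the end took 89.8% in pool 1 and 91.0% in pool 2 of Atp2a3, and the form with it 6.72% and 5.23%. For Atp2b3, at 187 and 211 gene counts, Atp2b3-201 took 59.9% in pool 1 and 47.9% in pool 2, with Atp2b3-203 holding the rest. The deposited intervals of Atp2b3-201 were 0.81 to 1.77 TPM in pool 1 and 0.46 to 1.31 TPM in pool 2. Those of Atp2b3-203, 0.50 to 1.27 and 0.57 to 1.31 TPM, overlapped them in each pool. Which transcript led is therefore uncertain in both pools. Atp2b1 had 1 transcript in the tables against 11 in GENCODE M21, and its share of 100% follows from that. Slc8a1-202 was also listed at 100%. Its posterior mean TPM was 1.94 in pool 1 against 3.86 for the gene, so the choice among Slc8a1 transcripts is uncertain.

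Between the pools, 7 of the 10 genes were lower in pool 2, against 58.4% of the 13210 genes whose mean TPM reached 1. The share among all genes fell to 50.2% with TMM scaling, where 6 members were lower, and to 8.10% with spike-in scaling, where 2 were. The median log2 ratio of the 10, given as pool 2 over pool 1 after adding 1 TPM to each, which mutes low genes, was -0.14, beside -0.07 for all genes. With spike-in scaling these were 0.21 and 0.54. The 10 genes were not filtered by level: Atp2b4, Atp2a1 and Slc8a2 had a mean below the 1 TPM asked of all genes. The 6 members detected in both pools were all lower in pool 2 as deposited, with a median log2 ratio of -0.50. The share of lower genes under that filter was not computed for all genes, so this count has no background beside it. Of the 6, Atp2a2, Atp2a3, Atp2b1 and Atp2b3 turned in direction with spike-in scaling. Against the median of genes of like length, Atp2b1 (0.23) and Atp2b3 (0.12) were not lower. After the same addition of 1 TPM, lower by 1.5-fold or more was 1 member, Atp2b2, against 7.25% of all genes, and higher by as much were 0 members, against 4.27%.

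By single gene, Atp2b2 had a log2 ratio of -0.70 as deposited and -0.011 with spike-in scaling. In TPM with nothing added, as for the folds that follow, pool 1 was 1.62-fold pool 2, with an exact binomial interval of 1.60 to 1.65. Atp2a2 was 1.39-fold higher in pool 1 (1.37 to 1.41), and Atp2a3 in pool 2 was at 0.668 of its level in pool 1 (0.632 to 0.706), both of which turn in direction with spike-in scaling. Slc8a1 was 1.62-fold higher in pool 1 (1.32 to 1.99), and its log2 ratio went from -0.53 as deposited to -0.0070 with spike-in scaling. Atp2b4 went the other way, its level in pool 2 being 1.65-fold that in pool 1 (1.16 to 2.43), at 41 and 122 counts. The intervals of Atp2b1, Atp2b3, Slc8a3, Atp2a1 and Slc8a2 included a ratio of 1. Atp2b1 was 1.02-fold higher in pool 1 (0.976 to 1.06), and TMM, size-factor and spike-in scaling each turn its direction. These intervals cover counting error only.

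Transcript length moved with the ratio over all genes: genes with an effective length under 500 nt had a median log2 ratio of 0.12, and those of 4000 nt or more -0.25. The effective length was 6931 nt for Atp2b2 and 7031 nt for Atp2b1 in pool 1, yet their ratios were -0.70 and -0.03. Set against genes of like length, Atp2b2 was at -0.44, Slc8a1 at -0.39, Atp2a3 at -0.31 and Atp2a2 at -0.22, while Atp2b1 was at 0.23. The part of length in the members' ratios was not tested beyond this subtraction. The labels link a Smart-seq protocol, which copies full-length transcripts, for pool 2 only. For pool 1 the labels name no library protocol.

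**Figure D5:**
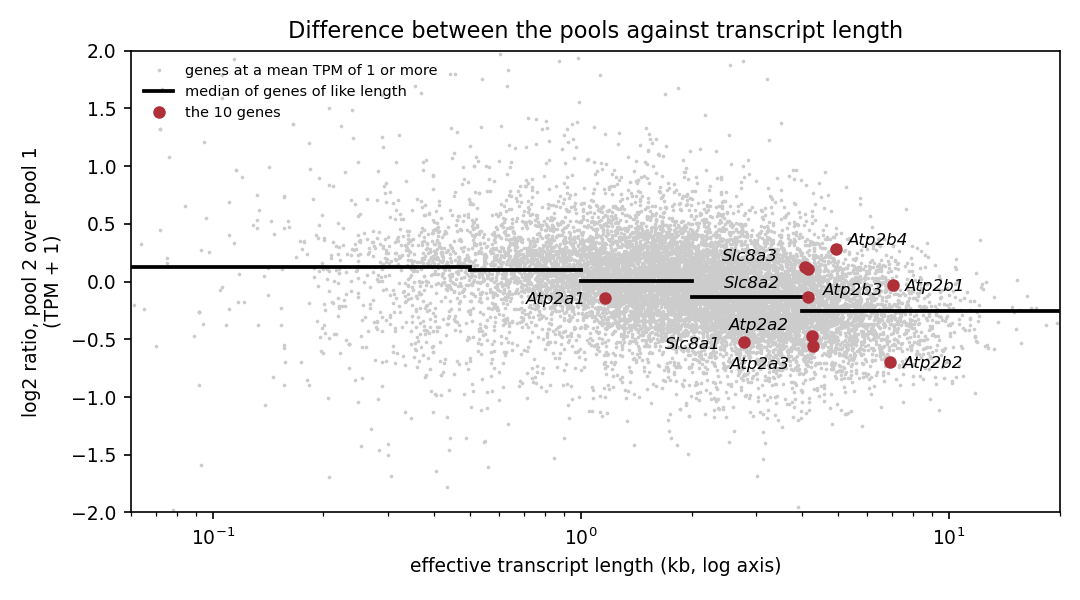
Log2 ratio of pool 2 over pool 1 in TPM + 1 against effective transcript length (kb, log axis) for the 10 genes (red) and all genes whose mean TPM reached 1 (grey; 272 of 13210 lie outside the axes), with black lines at the median of genes of like length. Atp2b2 lies at -0.70 and Atp2b1 at -0.03 at about the same length; all values shift up by 0.69 before the pseudocount under spike-in scaling, which turns the direction of Atp2a2, Atp2a3, Atp2b1, Atp2b3 and Atp2a1.

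The proteins that act on the pumps were read from a list of 10 regulators and partners, of which 7 were detected. Calm2, which encodes calmodulin, the activator of PMCA pumps, stood at 7659 ± 1253 TPM. Nptn, which encodes neuroplastin, an obligatory partner of PMCA pumps in neurons, stood at 1093 TPM in pool 1 and 720 TPM in pool 2, or 4.02-fold and 4.29-fold the level of Atp2b2. Bsg, which encodes the related partner basigin, stood at 655 and 660.01 TPM. The small inhibitors of SERCA pumps on this list were low: Pln (phospholamban) had 0.78 and 0.41 TPM, Sln (sarcolipin) 0 and 1.34 TPM, and Mrln (myoregulin) 2.36 and 4.50 TPM. Inhibitors outside the list were not read. Strit1, whose peptide counters phospholamban, had no count in either pool. Pln and Sln were named after their values were seen.

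Other routes of calcium transport were read from fixed lists for comparison with the 10 genes. Of the Golgi pumps, Atp2c1 stood at 72.6 and 58.6 TPM, above every PMCA or SERCA gene other than Atp2a2 and Atp2b2, and Atp2c2 at 0 and 0.09 TPM. Of 6 further sodium-calcium exchangers, 4 were detected. Slc24a2, a potassium-dependent exchanger of neurons, stood at 32.6 and 25.1 TPM, Slc24a5, known from pigment cells, at 18.6 and 13.9 TPM, and Slc24a3 at 6.74 and 6.48 TPM. Each of these 3 was above Slc8a1, the highest of the Slc8a exchangers, in both pools. Slc24a5 had fractional counts, 682.68 in pool 1 and 650.21 in pool 2, and overlapping genes were looked up for the 10 members only. Whether its level holds reads of another gene was not tested. Slc24a1, known from photoreceptors, had no count.

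Of the 7 mitochondrial uniporter genes, 6 were detected, led by Smdt1 at 446 ± 48.1 TPM and Micu3 at 188 ± 27.3 TPM. Of the 11 genes of calcium release and store entry, 9 were detected. Itpr1, the IP3 receptor that empties the store which Atp2a2 fills, stood at 547 and 367 TPM, or 1.09-fold and 1.02-fold the level of Atp2a2. Orai3 and Stim1, of store-operated entry, followed at 47.3 ± 4.13 and 32.0 ± 6.14 TPM. Of the 8 genes of the sodium-potassium ATPase, 6 were detected, led by the beta subunit Atp1b1 at 1364 ± 152 TPM. Atp1b2, a further beta subunit, stood at 97.3 and 91.0 TPM. Atp1a4, known from sperm, had no count.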

How the data were processed

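RNA-seq of 2 Purkinje cell pools was quantified by the authors per gene and transcript from transcriptome alignments to mm10, per the notes deposited with the files. The aligner, quantifier and strand setting are not given in the sources used here. Values were used as deposited: expected counts (estimated reads, not normalized), TPM (scaled by the authors with spike-ins included) and the percent of each transcript in its gene. Deposited posterior mean TPM was an alternative. The 10 genes, the related and marker lists, and the alternatives were chosen with earlier results of these data known. Genes named are all 10 members, the 3 highest of each related list and those with no count, and transcripts at 5% or more of Atp2b2 or Atp2a2. Some genes that this rule names are not reported here.

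Identifiers were matched to GENCODE M21, which named 42462 of 43346 genes, and Strit1 (Gm34302 there) through RefSeq synonyms. Entries with numeric identifiers (26248) and 97 spike-ins were left out of gene totals. Ratios used log2(TPM + 1). Depth was 23830685 and 27907662 counts. Intervals are at 95% (exact Poisson for a level, exact Clopper-Pearson for a ratio) and, since amplified copies of 1 molecule cannot be recognised, cover counting error only. With 1 group of 2 pools no test was possible. Scaling alternatives used edgeR 4.0.16 (TMM), DESeq2 1.42.0 (size factors) and 49 spike-ins, with counts rounded, in R 4.3.3, and were tested on simulated data. Tables were read with pandas 2.3.3 and numpy 2.4.6 in Python 3.11.15, intervals came from scipy 1.17.1 and plots from matplotlib 3.10.9.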

Additional observations from a re-analysis of the deposited data

How the results depend on the processing

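Of 175 recomputed values of 42 results, 152 moved by less than the spread between the pools (for ratios, the SD over all genes, and for counts, 1.5 times), 13 moved more and 10 changed direction. For levels and shares, the value of 1 pool alone always lies within the SD of 2 pools, so those recomputations could not have moved. By expected counts in place of TPM, SERCA pumps made up 53.1%, PMCA pumps 46.5% and exchangers 0.378% of the 10 genes, 6 of 10 genes kept their place in the order, and Atp2b2-206 made up 11.0% of its gene. With spike-in scaling, which raises the median log2 ratio of all genes to 0.54, 2 members were lower in pool 2, the members' median log2 ratio was 0.21, and Atp2a2 (0.21), Atp2a3 (0.10), Atp2b1 (0.64), Atp2b3 (0.36) and Atp2a1 (0.075) turned positive. Atp2b2 (-0.011) and Slc8a1 (-0.0070) came close to 0. Atp2b1 also turned with TMM (0.051), with DESeq2 size factors (0.048) and with the length adjustment (0.23), as did Atp2b3 with the last (0.12). The cause was not tested. At thresholds of 0.1, 0.5 and 5 TPM, 9, 8 and 4 members were detected, and by posterior mean TPM 8. Posterior mean TPM also gives a level to transcripts with no counts. Each pool alone gave 85.1% to 90.1% for Atp2b2 in its family, 65.1% to 79.1% for Slc8a1, and 48.6% to 60.2% for Atp2b2-201. Posterior means for detection and for transcript shares were chosen after seeing the data. No paired analysis was possible because there is 1 group.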
